A study of Mus musculus with 28 samples.

Results

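The genes described here encode the machinery that copies DNA in S phase. They were 41 genes listed by name, from the origin recognition complex to deoxynucleotide supply, and all 41 were among the 17295 genes of the deposited table. The data are RNA-seq values of 28 libraries of mouse cells in 14 groups, each with 2. Of the groups, 10 are labelled as induced neural stem cells (miNSC), derived from fibroblasts by lentiviral factors under doxycycline control and grown from colonies picked at day 20 after 18 days of doxycycline at 1 µg/mL. A letter stands for each factor: F is eSox17FNV, an engineered Sox17, the letters B, K and M are used as the labels give them, and 4F names the cocktail of the ear and tail-tip lines labelled so. M2rtTA, the doxycycline-responsive activator, was delivered to the fibroblasts too.

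The miNSC groups were BKF and KF lines from embryonic fibroblasts of ICR mice, BKF, KMF and KF lines from embryonic fibroblasts of Sox2-GFP mice, a 4F line from ear fibroblasts of 1.0-year Sox2-GFP mice, and 4F, BKF and KMF lines from the tail tips of 1.0-year animals of that strain. The tail-tip 4F line was sampled at passage 18 and at passage 8. The other groups, all of Sox2-GFP mice, were neural stem cells (NSC) of 2.5-year animals, with 1 library at passage 5 and 1 at passage 2, skin fibroblasts at 2.5 years, tail-tip fibroblasts at 2.5 years and tail-tip fibroblasts at 1.0 years. ICR, embryonic and ear fibroblasts were not analysed here, so the ICR, embryonic and ear lines had no fibroblasts of their own kind beside them. No source says that the libraries of a group came from separate colonies, so the spread between them may be technical. P-values measure that spread pooled over all 14 groups, the NSC pair of 2 passages included. Over the members, the median log2 gap between a group's libraries was 2.08 in NSC and 0.80 at passage 18. It was 0.05 to 0.17 in the other groups. The wide gaps thus enter the SE of every comparison in the fit over all groups.

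Replication begins at origins. The origin recognition complex, with Cdc6 and Cdt1, loads the Mcm2 to Mcm7 helicase in G1, the kinase Cdc7 and the factors Mcm10, Cdc45 and GINS start it in S phase, and polymerases alpha, delta and epsilon then copy the strands with the sliding clamp Pcna. Most of these genes are targets of E2F transcription factors, and neural stem cells in culture express them when they cycle and much less when they are quiescent.

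The cells carried the markers of their labels. Summed over 10 fibroblast markers, the normalised value was 426 to 3354 in miNSC libraries, 935 to 1610 in NSC libraries and 218566 to 240372 in fibroblast libraries. The sum over 10 neural stem and progenitor markers was 51576 to 131489 in miNSC, 59811 to 124062 in NSC and 522 to 826 in fibroblasts, where 5 of the 10 were at 0 in every library. Library totals ran from 15563679 to 15571626, and sorted values were equal in all 28 libraries at the median rank (a spread of 0%), so the values give shares within a common distribution and not amounts per cell. In such bulk samples, fewer cycling cells and less RNA per cell cannot be told apart.

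Promoters are shown for 5 members because E2F factors bind a known letter pattern and the members moved together. Windows of 250 bases before to 50 bases after the start site, from RefSeq on GRCm38.p6, were found for 34 of the 41 members. The letters TTTCCCGC, TTTGGCGC, TTTCGCGC and TTTGCCGC were searched on both strands, and 1 member is shown from each of 5 role classes, the one with the most matches or, where members tied, the first listed. Classes with more matches in a window were taken first. In the lines that follow, read 5′ to 3′ along the gene's strand, capitals mark the matches, and overlapping matches appear as 1 run.
Mcm6: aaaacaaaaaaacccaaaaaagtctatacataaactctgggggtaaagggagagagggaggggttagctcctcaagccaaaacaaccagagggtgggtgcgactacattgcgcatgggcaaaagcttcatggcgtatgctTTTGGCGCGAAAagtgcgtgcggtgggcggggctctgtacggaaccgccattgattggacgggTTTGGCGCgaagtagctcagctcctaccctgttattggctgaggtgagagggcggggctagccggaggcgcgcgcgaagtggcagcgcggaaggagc
Rfc3: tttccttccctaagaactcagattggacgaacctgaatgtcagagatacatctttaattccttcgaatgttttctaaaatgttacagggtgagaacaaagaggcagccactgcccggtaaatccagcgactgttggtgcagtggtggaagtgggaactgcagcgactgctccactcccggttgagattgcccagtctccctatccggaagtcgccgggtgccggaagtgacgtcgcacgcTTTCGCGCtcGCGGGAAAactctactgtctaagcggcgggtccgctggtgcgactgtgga
Orc1: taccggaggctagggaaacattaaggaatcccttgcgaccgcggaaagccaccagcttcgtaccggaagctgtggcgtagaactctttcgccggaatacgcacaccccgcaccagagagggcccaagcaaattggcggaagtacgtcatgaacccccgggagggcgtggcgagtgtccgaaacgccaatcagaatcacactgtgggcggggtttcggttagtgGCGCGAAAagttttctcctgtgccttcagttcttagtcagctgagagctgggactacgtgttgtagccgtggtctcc
Cdc6: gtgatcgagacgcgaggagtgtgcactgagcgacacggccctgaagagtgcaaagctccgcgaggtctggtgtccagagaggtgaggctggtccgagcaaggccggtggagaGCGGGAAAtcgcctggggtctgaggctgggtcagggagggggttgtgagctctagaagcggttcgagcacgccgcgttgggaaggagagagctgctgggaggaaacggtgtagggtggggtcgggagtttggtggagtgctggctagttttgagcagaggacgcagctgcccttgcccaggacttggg
Gins3: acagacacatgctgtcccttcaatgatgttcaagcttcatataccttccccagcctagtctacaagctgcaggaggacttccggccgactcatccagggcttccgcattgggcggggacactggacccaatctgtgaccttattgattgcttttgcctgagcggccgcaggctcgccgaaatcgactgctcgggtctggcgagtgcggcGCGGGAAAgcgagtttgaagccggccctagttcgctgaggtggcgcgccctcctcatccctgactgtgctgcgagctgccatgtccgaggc
The windows lie at chr1:128359656-128359955 on the minus strand for Mcm6, a helicase subunit, and chr5:151651159-151651458 on the minus strand for Rfc3, a clamp-loader subunit. Those of Orc1, Cdc6 and Gins3 are on the plus strand, at chr4:108579204-108579503, chr11:98907901-98908200 and chr8:95633309-95633608. Counted from 1 at the first transcribed base, matches start at -110, -106 and -47 in Mcm6, the first 2 overlapping on opposite strands, at -10 and 1 in Rfc3, at -27 in Orc1, at -138 in Cdc6 and at -41 in Gins3. The 34 genes have 41 windows, since some have more than 1 listed start. These letters occurred in 13 of the 41 windows (31.7%), each in another gene, against 744 of 32851 windows of all genes (2.26%). The shorter letters CCAAT occurred in 23 of the 41 member windows (56.1%) and in 12289 of all windows (37.4%). The matches are descriptions of letters, not of bound sites.

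Across the 14 groups most members moved as 1 block. As a summary of a library, each member's log2(value + 1) was set against its mean over groups, and the median over the 41 members was taken. This median was between 0.03 and 0.84 in the 16 libraries of 8 miNSC groups. The KF line of Sox2-GFP embryos had -1.17 and -1.12, and the tail-tip 4F line at passage 18 had -0.51 and -1.47. Those 2 groups were the lowest of the 10 miNSC groups for 40 of 41 members; Orc2, an origin recognition subunit, was lowest in the KMF line of tail-tip cells and at passage 18. In NSC the median was 0.33 at passage 5 and -1.85 at passage 2. It was 0.12 and 0.14 in skin fibroblasts, -0.73 and -0.66 in 2.5-year tail-tip fibroblasts, and -0.79 and -0.94 in 1.0-year tail-tip fibroblasts.

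**Figure D1:**
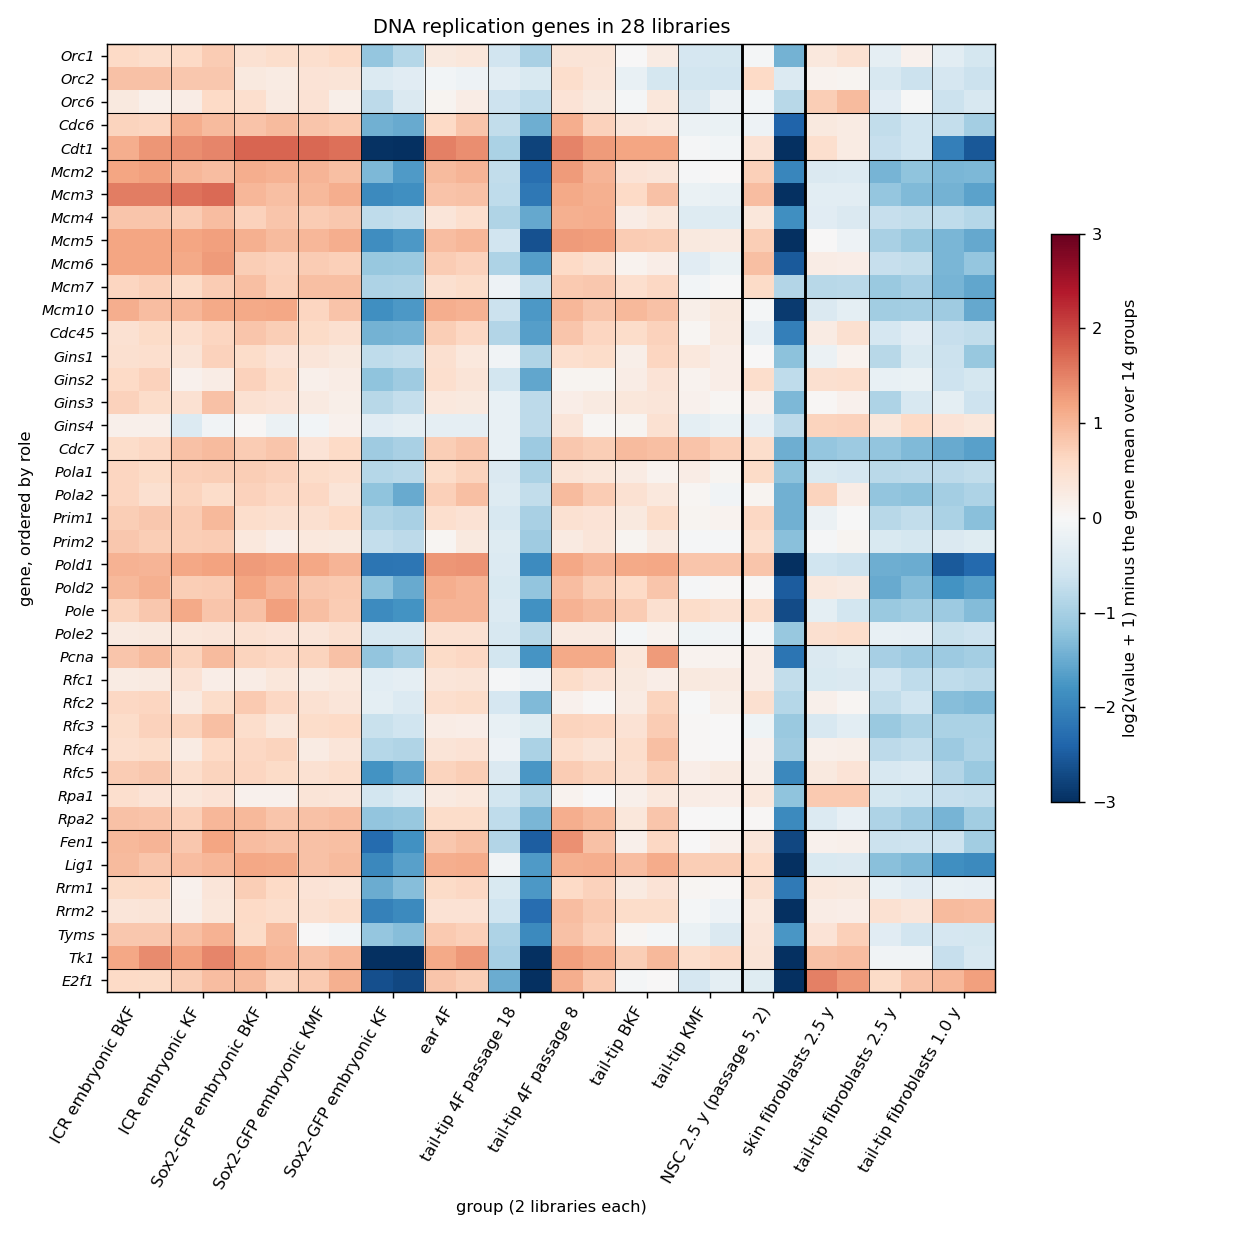
Each of the 41 replication genes (rows, by role) in each of 28 libraries (columns, 2 per group), coloured by log2(value + 1) minus the gene's mean over 14 groups, with colours stopping at 3 in either direction. The Sox2-GFP embryonic KF line, passage 18 of the tail-tip 4F line and NSC at passage 2 (right column of the NSC pair) are blue over nearly the whole column, as are, more lightly, the 4 tail-tip fibroblast libraries, in which 3 or 4 of 41 members lay above their mean.

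**Figure D2:**
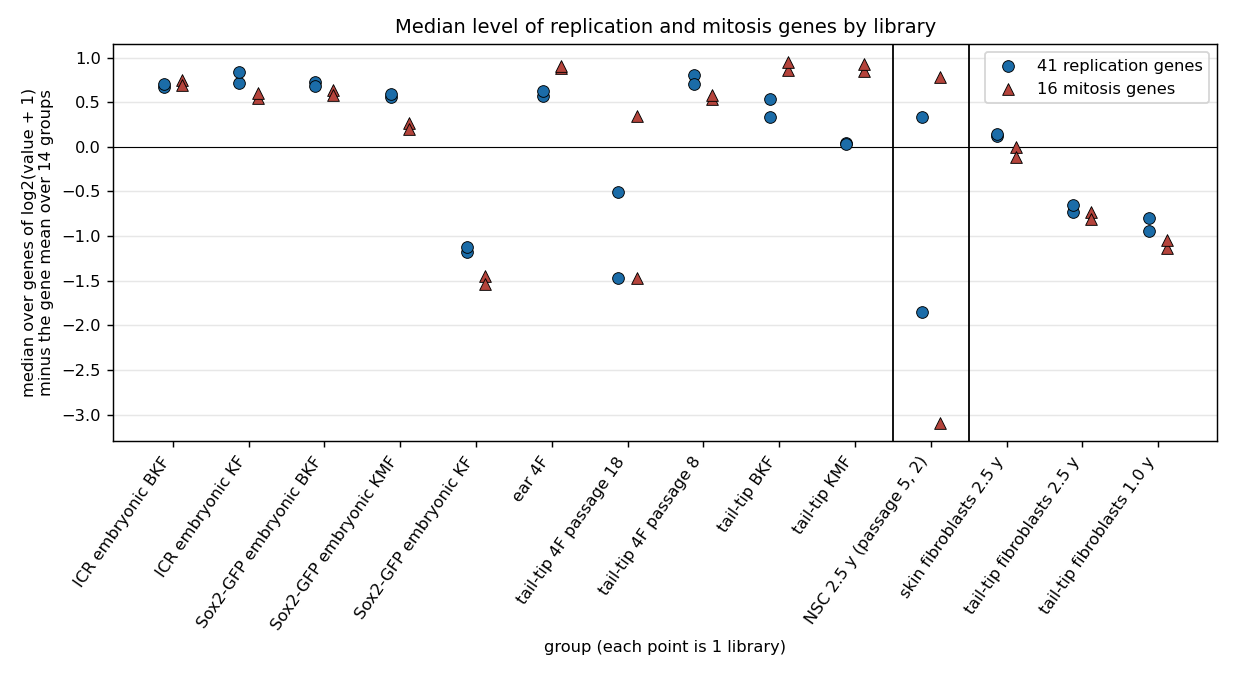
Median over 41 replication genes (circles) and over 16 mitosis genes (triangles) of log2(value + 1) minus the gene's mean over 14 groups, 1 point per library. Replication medians are below -1 in both libraries of the Sox2-GFP embryonic KF line, in 1 of 2 libraries at passage 18 and in NSC at passage 2.

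The members differed in how far they ranged and how closely they followed the rest. The highest group mean over the lowest among miNSC groups was 32.9-fold for Cdt1, which licenses origins with Cdc6, and 31.0-fold for Tk1, the thymidine kinase of the salvage pathway. It was 12.3-fold for E2f1, an activating transcription factor of the family, and 11.7-fold for Mcm3. At the other end it was 1.71-fold for Gins4, a subunit of the GINS complex, and 1.72-fold for Rfc1, the large subunit of the clamp loader. Over the 10 miNSC groups, whose points share libraries and scaling, Pearson's r between a member and the median of the other members was 0.996 for Mcm5 and 0.995 for Fen1, the flap nuclease of Okazaki fragments, and lowest for Orc2 (0.66) and Gins4 (0.636). Over all 14 groups, fibroblasts and NSC included, r was 0.987 for Mcm5 but 0.695 for Orc2, 0.657 for E2f1, 0.653 for Rrm2, a subunit of ribonucleotide reductase, and 0.175 for Gins4. These are descriptions over few groups.

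Mcm5 (chr8:75109569-75128439, mm10) shows the common pattern. Its normalised value was 1202 to 2445 in the 16 libraries of the 8 higher miNSC groups, 273 and 300 in the KF line of Sox2-GFP embryos, 670 and 163 at passage 18, 1671 and 52 in NSC at passages 5 and 2, and 344 to 1004 in fibroblasts. Tk1 (chr11:117815526-117826092) was 622 to 1198 in those 16 libraries, 30 and 40 in the KF line, 216 and 32 at passage 18, 564 and 7 in NSC, and 267 to 823 in fibroblasts. Both genes thus reached lower values in the 2 low miNSC groups than in any fibroblast library, Mcm5 at passage 18 in only 1 of 2 libraries. Gins4 (chr8:23226616-23237659) behaved differently, with 177 to 322 in the 8 higher groups, 186 and 194 in the KF line, 203 and 136 at passage 18, 199 and 136 in NSC, and 298 to 381 in fibroblasts.

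**Figure D3:**
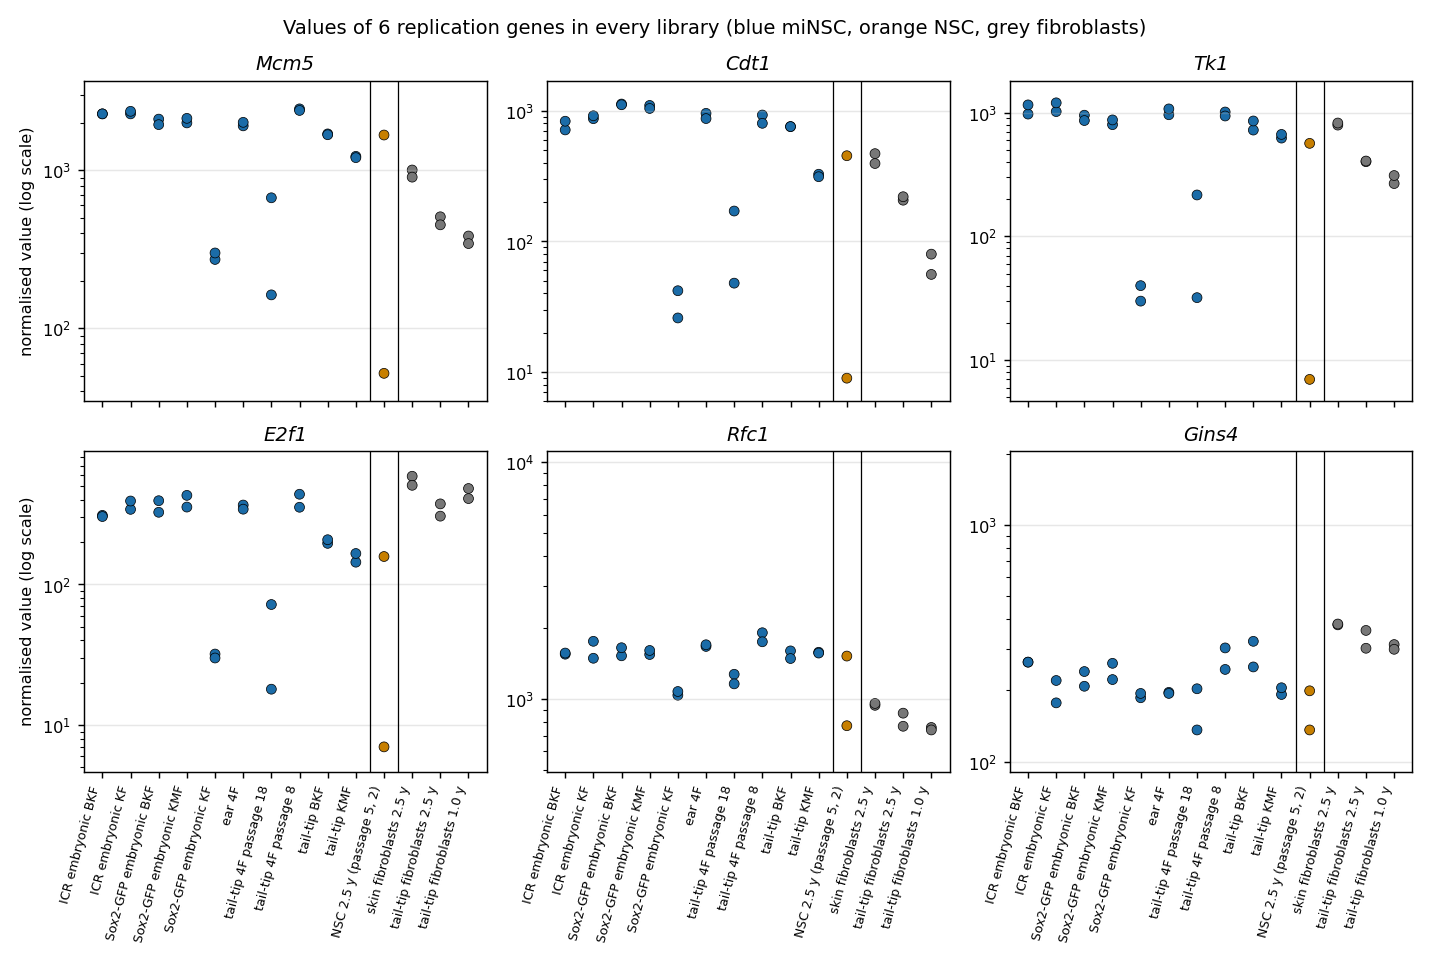
Normalised value (log scale) of Mcm5, Cdt1, Tk1, E2f1, Rfc1 and Gins4 in every library, 1 point per library, grouped along the horizontal axis. Mcm5, Cdt1, Tk1 and E2f1 drop in the Sox2-GFP embryonic KF line, at passage 18 and in NSC at passage 2, while Rfc1 stays between 739 and 1902 and Gins4 between 136 and 381.

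Comparing all miNSC with all fibroblasts, replication genes were mostly higher in miNSC. In limma's test on log2(value + 1), adjusted over all 16275 genes tested (Benjamini-Hochberg, threshold 0.05), 31 of 41 members rose and 2 fell, where 42.8% of all genes rose and 33.7% fell. The median log2 fold change was 0.82 over the members and 0.10 over all genes. All 6 Mcm2 to Mcm7 genes, all 8 polymerase and primase genes and all 6 clamp and clamp loader genes rose. The 4 genes of deoxynucleotide supply, Rrm1, Rrm2, Tyms and Tk1, did not pass, with log2 fold changes of -0.52 to 0.25. E2f1 and Gins4 were the members that fell. Only Rfc1 had every miNSC library above every fibroblast library, at 1036 to 1902 against 739 to 956, where 16.6% of all genes did.

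Among the polymerases, Pold1, the catalytic subunit of polymerase delta, had the largest change of all members. Its value had a lowest, median and highest of 132, 1291.5 and 1554 in miNSC, against 106, 217.5 and 400 in fibroblasts, a log2 fold change of 2.07 ± 0.35 (SE, adjusted p = 3.92e-05). The ranges overlap through the low miNSC groups. Pole2, an accessory subunit of polymerase epsilon, had the smallest change of its class, 0.23 ± 0.10 (adjusted p = 0.0473), with 148, 321.5 and 370 in miNSC and 166, 226 and 386 in fibroblasts. Its call was lost without any 1 of 24 of the 26 libraries compared, and the change was -0.036 without the 1.0-year tail-tip fibroblasts.

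Of the helicase genes, Mcm7 changed most, with 928, 2659 and 3280 in miNSC and 593, 842 and 1007 in fibroblasts (log2 fold change 1.47 ± 0.13, adjusted p = 3.09e-08), and Mcm6 least, with 603, 2940.5 and 4568 in miNSC and 724, 1152 and 2202 in fibroblasts (0.85 ± 0.29, adjusted p = 0.0151). Mcm7 shares exonic sequence with Ap4m1, Cops6, Mir25 and Mir93, and whether reads were counted by strand was not stated. Cdc7, the kinase that activates the loaded helicase, stood highest among the origin firing genes, with 227, 803.5 and 928 in miNSC and 156, 202 and 227 in fibroblasts (1.75 ± 0.18, adjusted p = 1.7e-07). Its ranges meet at 227.

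Gins4 was lower in miNSC, with 136, 214 and 322 against 298, 335 and 381 in fibroblasts (log2 fold change -0.61 ± 0.09, adjusted p = 1.11e-05). Its partners in the same complex did not follow it: the log2 fold changes were 0.74 ± 0.15 for Gins1 and 0.52 ± 0.15 for Gins3, which rose, and 0.14 ± 0.14 for Gins2, which did not pass. E2f1 (chr2:154559407-154569892) was also lower, with 18, 318 and 438 in miNSC and 306, 444.5 and 588 in fibroblasts (-1.15 ± 0.40, adjusted p = 0.0157). The call of E2f1 was lost without the Sox2-GFP embryonic KF group (adjusted p = 0.0756) and without the skin fibroblasts (adjusted p = 0.0826).

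In the licensing pair, Cdt1 had 26, 817 and 1126 in miNSC and 56, 213.5 and 470 in fibroblasts (log2 fold change 1.34 ± 0.49, adjusted p = 0.0207), and Cdc6 had 93, 423 and 572 in miNSC and 132, 170 and 328 in fibroblasts (0.68 ± 0.20, adjusted p = 0.00647). Among the origin recognition genes Orc2 rose (0.45 ± 0.09, adjusted p = 0.000337), while Orc1 (0.12 ± 0.13) and Orc6 (0.0044 ± 0.10) did not pass. Pcna, the sliding clamp, had 1140, 6098.5 and 9430 in miNSC and 1829, 1942 and 3047 in fibroblasts (1.18 ± 0.24, adjusted p = 0.000311), and Rfc5 changed least of the clamp class (0.57 ± 0.21, adjusted p = 0.0237). Lig1, the ligase that seals Okazaki fragments, had 217, 1597.5 and 1847 in miNSC and 220, 335 and 613 in fibroblasts (1.73 ± 0.38, adjusted p = 0.000626), against 0.69 ± 0.30 for Fen1 (adjusted p = 0.0475). The Fen1 call was lost without any 1 of 22 of the 26 libraries, that of Cdt1 without skin fibroblast replicate 2 or 1.0-year tail-tip fibroblast replicate 2, and that of Rfc5 without skin replicate 1, 1.0-year tail-tip replicate 2 or 2.5-year tail-tip replicate 1. Of the single-strand binding proteins, Rpa2 rose (1.20 ± 0.18, adjusted p = 1.49e-05) and Rpa1 did not pass (0.26 ± 0.13, adjusted p = 0.0877). With the mean of each group taken as 1 sample, 9 members rose and 1 fell, with no share of all genes given for that fit. These included Mcm7, Cdc7, Pold1, Rfc1, Rfc3 and Lig1.

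Tail-tip lines could be set against fibroblasts of the same kind and age, those of 1.0-year tail tips. Here 26 members rose and 2 fell, where 36.7% and 29.4% of all genes did, and the median log2 fold change was 1.06. For 8 members every one of the 8 miNSC libraries was above both fibroblast libraries, passage 18 included, where 29.7% of all genes were: Mcm7, Cdc7, Pola2, Pold1, Pold2, Rfc1, Rfc3 and Lig1. Rfc3, whose promoter is shown above, had a lowest, median and highest of 406, 625 and 891 in tail-tip miNSC and 272 in both fibroblast libraries (log2 fold change 1.19 ± 0.16, adjusted p = 5.82e-06). Mcm7 (1.70 ± 0.23, adjusted p = 5.32e-06), Rfc1 (1.02 ± 0.15, adjusted p = 1.56e-05), Cdc7 (2.02 ± 0.31, adjusted p = 2.29e-05) and Rfc4 (1.17 ± 0.22, adjusted p = 0.000198) had the other smallest adjusted p-values. Without fibroblast replicate 1 the count of changed members was 15, without replicate 2 it was 12, the remaining library being taken to vary like the other groups, and without the passage 8 group it was 18. With group means it was 1. Keratinocyte markers summed to 676 and 667 in these fibroblasts, and to 70 to 159 over all miNSC libraries. Leukocyte markers summed to 306 and 305, and to 10 to 199 over all miNSC libraries. The part of these markers was not tested.

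The KF line of Sox2-GFP embryonic fibroblasts stood far below the lines made with an added factor. Against KF, 39 of 41 members rose in BKF, where 19.2% of all genes rose, and all 41 had both BKF libraries above both KF libraries, where 37.8% of all genes did. The median log2 fold change was 1.85, against 0.02 over all genes. The largest was that of Cdt1 (chr8:122568015-122573554), with 1126 and 1112 in BKF and 42 and 26 in KF (5.04 ± 1.05, adjusted p = 0.00133), which is 32.9-fold. Tk1 had 952 and 862 in BKF and 30 and 40 in KF (4.67 ± 1.21, adjusted p = 0.00626), and E2f1 had 394 and 326 in BKF and 32 and 30 in KF (3.49 ± 0.86, adjusted p = 0.00441).

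The smallest adjusted p-values were those of Pola2, a subunit of polymerase alpha, Cdc45, which travels with the helicase, and Mcm7. Pola2 had 544 and 521 in BKF and 146 and 117 in KF (2.02 ± 0.31, adjusted p = 0.0001). Cdc45 had 628 and 585 in BKF and 130 and 132 in KF (2.20 ± 0.36, adjusted p = 0.000192). In each the 2 groups are wide apart compared with the gap within a group. Gins4 (0.23 ± 0.19) and Rpa1 (0.61 ± 0.29) did not pass. By role, the median log2 fold change was 3.71 for licensing, 2.94 for Okazaki fragment processing, 2.29 for deoxynucleotide supply, 2.22 for the Mcm genes, 1.78 for polymerases and primase, 1.76 for origin firing, 1.30 for the clamp and its loader and 0.98 for origin recognition.

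KMF against the same KF libraries gave 39 members higher, where 19.9% of all genes were, and all 41 without overlap, where 35.6% were, with a median of 1.80 and 4.97 ± 1.05 for Cdt1 (1099 and 1042 in KMF). Gins4 (0.34 ± 0.19) and Rfc2, a clamp-loader subunit (0.76 ± 0.30), did not pass. Since BKF and KMF were set against the same 2 KF libraries, the counts are not independent. Leaving out any 1 of the 4 libraries compared left 30 calls for BKF and 26 to 29 for KMF. The calls of Orc2, Mcm3, Mcm5, Mcm6, Prim2, Pcna and Rfc1 in BKF were lost without any 1 of those 4 libraries.

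In ICR embryonic lines the same step showed no such change. BKF against KF gave 0 members past the threshold with limma and 0 at an unadjusted p under 0.05, where 13.1% of all genes passed, and the median log2 fold change was -0.04. Cdt1 had 714 and 832 in ICR BKF and 870 and 916 in ICR KF (-0.21 ± 1.05), and Tk1 had 972 and 1153 in BKF and 1018 and 1198 in KF (-0.06 ± 1.21). Pola2 had 524 and 466 in BKF and 535 and 494 in KF (-0.06 ± 0.31). The ICR KF libraries thus sit with the BKF libraries and not with the KF line of Sox2-GFP mice. Gins4 had the smallest adjusted p, 0.215, with 263 and 263 in BKF and 177 and 220 in KF.

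The difference of the BKF against KF effect, ICR minus Sox2-GFP, was tested in the same model. It passed for 27 of 41 members, all with a smaller effect in ICR, where 16.4% of all genes had a negative difference past the threshold. It was -2.07 ± 0.44 for Pola2 (adjusted p = 0.00181), -2.74 ± 0.62 for Cdc6 (adjusted p = 0.00296), -2.26 ± 0.52 for Cdc45 (adjusted p = 0.00314), -1.21 ± 0.29 for Rfc3 (adjusted p = 0.00413) and -1.71 ± 0.41 for Mcm7 (adjusted p = 0.00419). The count was 16 without ICR BKF replicate 1, without ICR KF replicate 2 or without Sox2-GFP BKF replicate 1. Strain and line cannot be told apart, since each strain gave 1 group per cocktail. For the same reason cocktail and line cannot be told apart in BKF or KMF against KF.

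Astrocyte markers moved with these groups. The sum over 6 markers was 2948 and 3104 in Sox2-GFP BKF, 4114 and 4023 in KMF and 15117 and 15064 in KF, and 6927, 6915, 5662 and 5752 in the ICR BKF and KF libraries; all 6 were lower in Sox2-GFP BKF than in KF. The sum over 4 oligodendrocyte markers was 1704 and 1560 in BKF and 3487 and 3564 in KF, and that over neuron markers was 702 and 680 in BKF and 1323 and 1298 in KF. The neural stem and progenitor sum was 131489 and 131471 in BKF, 66061 and 67714 in KMF and 65550 and 66342 in KF. Their part in the replication result was not tested.

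**Figure D4:**
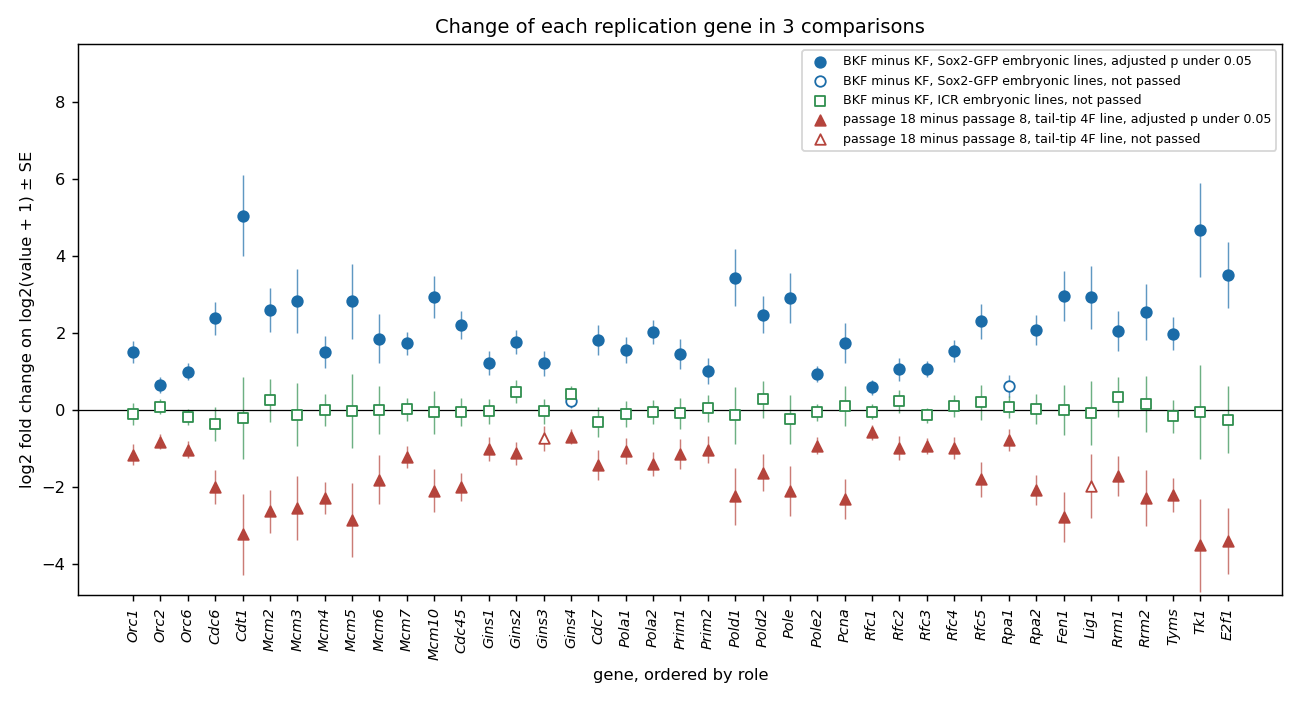
Log2 fold change (± SE of the fitted contrast) of each of the 41 replication genes for BKF minus KF in Sox2-GFP embryonic lines (circles), BKF minus KF in ICR embryonic lines (squares) and passage 18 minus passage 8 of the tail-tip 4F line (triangles); filled symbols have an adjusted p under 0.05. Circles lie at 0.23 to 5.04, squares near 0 and triangles at -0.59 to -3.53.

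At passage 18 the tail-tip 4F line had lower replication transcripts than at passage 8. Of the 41 members 39 fell, where 17.6% of all genes fell, and all 41 had both libraries at passage 18 below both at passage 8, where 31.1% of all genes did. The median log2 fold change was -1.73. Mcm4, a helicase subunit, had 1148 and 734 at passage 18 and 4471 and 4522 at passage 8 (-2.29 ± 0.41, adjusted p = 0.000471), and Cdc45 had 190 and 112 against 630 and 547 (-2.0 ± 0.36, adjusted p = 0.000519). Rpa2 had 226 and 146 at passage 18 and 814 and 745 at passage 8 (-2.09 ± 0.39, adjusted p = 0.000654), and Tyms, the thymidylate synthase, had 197 and 100 against 688 and 620 (-2.21 ± 0.43, adjusted p = 0.000918). Orc6 followed with 296 and 268 at passage 18 and 600 and 560 at passage 8 (-1.04 ± 0.22, adjusted p = 0.00151).

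The largest falls were those of Tk1, with 216 and 32 at passage 18 and 1010 and 938 at passage 8 (-3.53 ± 1.21, adjusted p = 0.0331), E2f1, with 72 and 18 against 438 and 354 (-3.41 ± 0.86, adjusted p = 0.00571), and Cdt1, with 171 and 48 against 928 and 802 (-3.23 ± 1.05, adjusted p = 0.0254). Gins3 (-0.74 ± 0.32) and Lig1 (-1.98 ± 0.82) did not pass. Gins4, which barely differed between BKF and KF, fell here with 203 and 136 at passage 18 against 302 and 245 at passage 8 (-0.71 ± 0.19, adjusted p = 0.00974).

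The 2 libraries at passage 18 were unequal. Replicate 2 was below replicate 1 for 41 of 41 members, by a median of 0.80 on the log2 scale, and by at least 2-fold for 16, whereas 4.44% of all genes were at least 2-fold lower in it. Without passage 18 replicate 2, 11 members passed, and without replicate 1, 38 passed; without either library of passage 8, 19 and 23 did. In a fit of these 2 groups alone 7 passed. The calls of Cdt1 and Tk1 were lost without passage 18 replicate 2 or without either library of passage 8, that of E2f1 without passage 18 replicate 2, and that of Gins4 without passage 18 replicate 2 or passage 8 replicate 1. The astrocyte marker sum was 5063 and 9461 at passage 18 and 1304 and 1237 at passage 8, with 5 of the 6 markers higher and 1 lower. The oligodendrocyte marker sum was 5263 and 6223 at passage 18 and 1214 and 1569 at passage 8, and the neural stem and progenitor sum was 51576 and 54287 at passage 18 and 83452 and 84972 at passage 8, with 4 of its 10 markers higher and 2 lower. The part of these in the replication result was not tested. Among miNSC lines, passage is given for this line alone. Each passage was 1 group of 2 libraries, so passage and culture cannot be told apart.

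The NSC libraries differed from each other more than those of any other group did. Their median log2 gap was 2.08 over the members and 0.373 over all genes tested. The next widest were 0.80, at passage 18, and 0.207, in the tail-tip BKF line. From 1 library each, the value at passage 5 was above that at passage 2 for 41 of 41 members, by at least 2-fold for 37 and by a median of 2.08 on the log2 scale, while 10.6% of all genes were at least 2-fold higher. Mcm3 was 2048 at passage 5 and 99 at passage 2, Lig1 was 1263 and 64, and Cdt1 was 453 and 9. Passage and library cannot be told apart here. Markers differed too: the neural stem and progenitor sum was 124062 at passage 5 and 59811 at passage 2. In the same order the oligodendrocyte sum was 2736 and 4944, the astrocyte sum 33279 and 40373, and the neuron sum 2821 and 2274. The part of these markers was not tested.

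Against this pair, 29 members were higher in miNSC and 0 lower, where 20.9% of all genes were higher and 19.7% lower, with a median of 0.93. Rfc3 had the smallest adjusted p, with a lowest, median and highest of 330, 735.5 and 972 in miNSC and 476 and 241 in NSC (0.93 ± 0.15, adjusted p = 0.000152). Next came Cdc45 (1.34 ± 0.27, adjusted p = 0.000922), Cdc6 (1.54 ± 0.33, adjusted p = 0.00136), Mcm10 (1.88 ± 0.41, adjusted p = 0.00177) and Pold2 (1.64 ± 0.36, adjusted p = 0.00178). The result rests on the passage 2 library: without it 1 member was higher and 3 were lower in miNSC, and without the passage 5 library 41 were higher. Leaving out either NSC library also takes the gap between them out of the pooled spread, so the SE changed along with the mean. With the mean of each group taken as 1 sample 0 passed in limma's test. Astrocyte markers moved with this comparison: their sum was 1237 to 15117 in miNSC and 33279 to 40373 in NSC, with 5 of 6 lower in miNSC and 1 higher, Gfap at -5.46 and Aldh1l1 at -7.70. Neuron markers summed to 614 to 1834 in miNSC and 2274 to 2821 in NSC. Their part was not tested. Every member overlapped between miNSC and NSC libraries, whereas 3.78% of all genes were higher and 4.28% lower without overlap.

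NSC against 2.5-year fibroblasts gave 1 member higher and 10 lower, where 34.4% and 31.2% of all genes were. Mcm7 was the higher one (0.78 ± 0.25, adjusted p = 0.0116), a call lost without the passage 5 library or without tail-tip fibroblasts. Gins4 had 199 and 136 in NSC, against 378 and 381 in skin and 301 and 358 in tail-tip fibroblasts (-1.10 ± 0.17, adjusted p = 2.36e-05), and E2f1 had 158 and 7 in NSC, against 588 and 507 in skin and 306 and 374 in tail-tip fibroblasts (-3.59 ± 0.75, adjusted p = 0.000448). These were the 2 members whose NSC libraries, at both passages, lay below all 4 fibroblast libraries, where those of 27.6% of all genes did. The other smallest adjusted p-values were those of Orc6 (-0.79 ± 0.19, adjusted p = 0.00139), Pole2 (-0.74 ± 0.18, adjusted p = 0.00202) and Orc1 (-0.90 ± 0.24, adjusted p = 0.00386). Without the passage 2 library the calls of Orc6, Pole2 and Orc1 were lost and 22 members were higher and 2 lower, and without the passage 5 library 37 were lower; without skin fibroblasts 2 were higher and 3 lower. The fits without an NSC library again left the gap of the pair out of the SE. With only the groups compared in the fit 1 was lower and none higher, and with group means 1 was lower.

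Fewer members passed between donor cells and between the other cocktails in the fit over all groups, whose spread takes in the NSC pair. Fits of fewer groups called more members in each of the 6 comparisons that follow. The shares of called genes given are those of the fit over all groups, so counts from other fits have no share beside them. Embryonic BKF and KMF lines against tail-tip BKF and KMF lines of Sox2-GFP mice had 6 of 41 members higher. This was no more than the share of all genes (17.2%). The 6 were Orc1, Orc2, Orc6, Mcm4, Mcm7 and Pole2. Orc2 (chr1:58462771-58505109) had 989, 962, 1070 and 1062 in the embryonic lines and 691, 566, 550 and 543 in the tail-tip lines (0.80 ± 0.14, adjusted p = 0.000343), with no overlap. Orc2 shares exonic sequence with Nif3l1. Of the 41 members 16 were higher in the embryonic lines without overlap, where 12.8% of all genes were. With the NSC pair left out of the fit 19 members were higher, with only these groups in the fit 26 were higher and 1 lower, with group means 0 passed in limma's test, and leaving out a single library gave 2 to 4: 2 without embryonic BKF replicate 1, tail-tip BKF replicate 1 or either tail-tip KMF library, and 3 without either embryonic KMF library. The calls of Mcm4 and Mcm7 were lost without any 1 of the 8 libraries.

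The tail-tip 4F line at passage 8 was above the tail-tip BKF line in Orc2 alone (0.82 ± 0.20, adjusted p = 0.00616), with 1168 and 1042 in 4F and 691 and 566 in BKF, where 13.1% of all genes were higher. That call was lost without 4F replicate 1 or BKF replicate 2. Against the tail-tip KMF line, 7 of 41 members were higher, which was no more than the share of all genes (18.1%). They were Orc1, Orc2, Orc6, Mcm4, Mcm7, Pola2 and Rfc3. The smallest adjusted p-values were those of Orc2 (1.01 ± 0.20, adjusted p = 0.000819) and Mcm4 (1.46 ± 0.41, adjusted p = 0.0113). The count fell to 1 without 4F replicate 1 or KMF replicate 1 and to 2 without the other replicate of either group, and only Orc2 kept its call in all 4 cases. Without overlap, 22 members were higher than in BKF, where 27.3% of all genes were, and 37 higher than in KMF, where 33% were, with a median log2 fold change of 0.63. These comparisons share the 4F libraries. With the NSC pair left out of the fit the counts were 7 against BKF and 25 against KMF, and with only the groups compared they were 2 and 30.

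The ear 4F line was below the tail-tip 4F line at passage 8 in Orc2 (-0.57 ± 0.20, adjusted p = 0.0441; 760 and 728 in ear, 1168 and 1042 in tail-tip), the single member that passed, where 13.8% of all genes were lower, and the call was lost without any 1 of these 4 libraries. With the NSC pair left out of the fit 4 were lower, and with only these groups in the fit 2 were higher and 9 lower. In fibroblasts, 2.5-year against 1.0-year tail-tip cells gave 0 members past the threshold with limma and 0 at an unadjusted p under 0.05. Of all genes 11% passed the threshold, and the median over the members was 0.26. With the NSC pair left out of the fit 6 were higher, and with only these groups 6 were higher and 1 lower. Keratinocyte markers summed to 116 and 132 at 2.5 years and 676 and 667 at 1.0 years. Leukocyte markers summed to 1238 and 1217 at 2.5 years and 306 and 305 at 1.0 years. The part of these markers was not tested. Skin against tail-tip fibroblasts at 2.5 years had 8 members higher, where 12% of all genes were, and 40 of 41 higher without overlap, where 33.4% were, with a median log2 fold change of 0.74. Pola2 led, with 532 and 392 in skin and 148 and 143 in tail-tip cells (1.64 ± 0.31, adjusted p = 0.000832), followed by Orc6 (1.03 ± 0.22, adjusted p = 0.002), Rpa1 (1.35 ± 0.29, adjusted p = 0.00212), Pole2 (0.74 ± 0.21, adjusted p = 0.0164) and Pold2 (1.69 ± 0.49, adjusted p = 0.0165). This count was 3 (Pola2, Orc6 and Rpa1) without any 1 of the 4 libraries and 27 with the NSC pair left out of the fit, and with only these groups 32 were higher and 1 lower. Neuron markers summed to 2653 and 2386 in skin and 547 and 457 in tail-tip cells, with Tubb3 the 1 of 6 tested that was higher, and leukocyte markers to 393 and 378 in skin and 1238 and 1217 in tail-tip cells, with 3 of 4 tested lower. Their part was not tested.

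Other genes of the cell cycle were read from further lists. Of 30 other replication genes, such as replication fork and accessory polymerase subunits, 21 rose and 2 fell in Sox2-GFP embryonic BKF against KF, and 2 rose and 17 fell at passage 18 against 8; of all genes 18.5% fell in the first comparison and 17.5% rose in the second. Mcmbp, which binds Mcm proteins, was at 0.94 ± 0.07 and -0.59 ± 0.07, and Pold3, a polymerase delta subunit, was at 1.45 and -1.07, in these 2 comparisons on the log2 scale. Of 7 S-phase cyclins and kinases 7 rose in BKF and 5 fell at passage 18, among them Ccne1, a cyclin E (2.49 and -2.41), and Skp2, which marks proteins for destruction (2.12 and -1.26). Of 12 E2F and pocket protein genes 8 rose and 3 fell in BKF, and 2 rose and 7 fell at passage 18; E2f3 was at 1.71 and -0.90.

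Of 20 other nucleotide synthesis genes 16 rose in BKF against KF, and 2 rose and 14 fell at passage 18. Of 12 genes of replication-coupled chromatin 12 rose in BKF and 11 fell at passage 18, and of 16 genes of replication stress and repair 14 rose in BKF and 8 fell at passage 18. Of 7 inhibitors of cyclin-dependent kinases 2 rose and 2 fell in BKF, and 1 rose and 3 fell at passage 18, where 19.2% of all genes rose and 18.5% fell in BKF and 17.5% rose and 17.6% fell at passage 18. Cdkn2a was at 1.02 in BKF against KF and -1.70 at passage 18 against 8, and Cdkn1b was at -0.48 and 0.89. Of 16 mitosis genes 10 rose in BKF, with a median of 2.16. At passage 18, 0 passed with limma, nor did any at an unadjusted p under 0.05, with a median of -1.26. The mitosis median of a library was 0.34 and -1.47 at passage 18 and 0.54 and 0.58 at passage 8, so the 2 passage 18 libraries were unequal. In NSC, whose gap enters the SE here, it was 0.78 at passage 5 and -3.10 at passage 2. Absence of a call thus does not show that mitosis genes were unchanged.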

How the data were processed

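Messenger RNA of 28 libraries was read from 1 deposited table. Per the labels' protocols, RNA was isolated with Trizol, enriched with oligo(dT) beads and primed with random hexamers. RSEM, Bowtie2 2.0 and mm10 are named in the submitters' processing notes. The authors' deposited values are whole-number scores described as normalised; the normalisation is not given in the sources used here, and depth is unknown, so no interval from counts was made. Sorted values of the libraries differed by 0% at the median rank and by 5.43% at the 95th percentile, so a change shared by most genes of a library would not be seen.

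Values were changed to log2(value + 1). Genes with a mean of at least 10 (16275 of 17295) entered a linear model in R 4.3.3 (limma 3.58.1) that had a variance trend and 1 term per group over all 28 libraries; comparisons are contrasts of group means, two-sided, adjusted over all genes by Benjamini and Hochberg, with a threshold of 0.05. Fold changes are on the log2(value + 1) scale and understate those of low genes. All 41 members were tested. The members and gene lists were chosen with earlier results of these data known. Any member could be named; those given in full had the smallest or largest change of their role class against fibroblasts, or 1 of the 5 smallest adjusted p-values in another comparison, and up to 4 genes a list came from other lists. Values singled out beyond this were chosen after they were seen. Coordinates are from GENCODE M21 (mm10). Exons of 15 members overlap those of another gene and Tyms and Pcna have named pseudogenes, so their values may hold other reads. The fit was tested on simulated data. Alternatives were another pseudocount, other filters, centring, a robust prior, fewer groups in the fit, group means, a replicate block and leaving out each library; leaving out the NSC pair or a group was chosen after seeing the data. Python 3.11.15 with pandas 2.3.3, numpy 2.4.6 and matplotlib 3.10.9 and R's statmod 1.5.0 were used.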

Additional observations from a re-analysis of the deposited data

Results flagged for a closer look

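The effect of BKF against KF differed between ICR and Sox2-GFP embryonic lines by a test of the difference itself. It passed for 27 members, where 16.4% of all genes had a negative difference past the threshold, and for 16 without ICR BKF replicate 1, ICR KF replicate 2 or Sox2-GFP BKF replicate 1. The fit gave a log2 difference of -2.07 for Pola2, -2.74 for Cdc6, -2.26 for Cdc45 and -1.21 for Rfc3, ICR minus Sox2-GFP.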

How the results depend on the processing

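Each called member was recomputed under each alternative that applied: 5069 such values kept their direction and side of the threshold, 683 lost the threshold and 15 changed sign. Counts of changed members over the fits that each left out 1 library were 27 to 33 for miNSC against fibroblasts, 12 to 30 for tail-tip lines against their fibroblasts, 4 to 41 for miNSC against NSC, 10 to 37 for NSC against 2.5-year fibroblasts, 2 to 4 for embryonic against tail-tip lines, 0 to 0 for BKF against KF in ICR, 30 to 30 for BKF and 26 to 29 for KMF against KF in Sox2-GFP lines, 0 to 1 for 4F against BKF, 1 to 2 for 4F against KMF, 11 to 38 for passage 18 against 8, 0 to 0 for ear against tail-tip, 0 to 0 for 2.5 against 1.0 years, 3 to 3 for skin against tail-tip and 16 to 20 for the strain difference. The strain difference here names the difference of the BKF against KF effect between ICR and Sox2-GFP embryonic lines. Strain and line cannot be told apart in it. Where a group kept 1 library, that library was assumed to vary like the other groups. With only the groups compared in the fit, the counts were 1 for NSC against fibroblasts, 27 for embryonic against tail-tip lines, 1 for BKF against KF in ICR, 2 for 4F against BKF, 30 for 4F against KMF, 7 for passage 18, 11 for ear against tail-tip, 7 for 2.5 against 1.0 years and 33 for skin. With the NSC pair left out they were 19, 7, 25, 4, 6 and 27 for embryonic against tail-tip lines, 4F against BKF, 4F against KMF, ear, age and skin. Without the passage 8 group the tail-tip count was 18, and without skin fibroblasts that of NSC against fibroblasts was 5. With each group's mean as 1 sample, which leaves fewer samples, the counts were 10, 1, 0, 1 and 0 for miNSC against fibroblasts, tail-tip lines, miNSC against NSC, NSC against fibroblasts and embryonic against tail-tip lines. The fit over all groups counts the gap between the 2 NSC libraries, of passages 5 and 2, as spread in every comparison. Leaving out the pair, or either of its libraries, removes that gap. Apart from the group means, how far this or another cause accounts for the moves was not tested. Shares of all genes were not given for these alternatives.

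Without NSC replicate 1, the passage 2 library, and without replicate 2, the passage 5 library, miNSC against NSC was at -0.50 and 3.85 for Mcm3, -0.065 and 2.11 for Mcm4, -0.31 and 4.67 for Mcm5, -0.079 and 1.90 for Cdc7, -0.26 and 3.58 for Pold1, -0.14 and 3.07 for Pole, -0.014 and 0.96 for Rfc1, -0.12 and 2.97 for Fen1, -0.084 and 4.20 for Lig1, -0.31 and 3.39 for Rrm2 and -0.13 and 6.01 for Tk1. In NSC against 2.5-year fibroblasts the same pair of values was 0.042 and -2.20 for Cdc6, 0.58 and -4.93 for Cdt1 and 0.000573 and -3.70 for Rrm2. Pole2 was at -0.036 in miNSC against fibroblasts without the 1.0-year fibroblasts.

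The replicate numbers did not pair libraries: deviations of same-numbered libraries correlated at -0.055 to 0.071 over 78 pairs of groups. With the replicate block the counts were 31, 26, 29, 10, 6, 0, 39, 39, 1, 7, 38, 1, 0, 8 and 23 for miNSC against fibroblasts, tail-tip lines, miNSC against NSC, NSC against fibroblasts, embryonic against tail-tip lines, ICR, BKF and KMF against KF, 4F against BKF and KMF, passage 18, ear, age, skin and the strain difference. Depth, which sets the precision of low members such as Gins3, is unknown.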

Other observations

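Replication and mitosis medians of single libraries were set side by side in 2 groups, with no test of their difference. At passage 18 of the tail-tip 4F line the replication median was -0.51 in replicate 1 and -1.47 in replicate 2, and the mitosis median was 0.34 and -1.47. In the tail-tip KMF line the replication median was 0.04 and 0.03 and the mitosis median 0.85 and 0.92.

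Medians of the log2 fold change were also taken over the 13 members with the E2F letters in a promoter window and the 21 without. In miNSC against fibroblasts they were 1.09 with the letters and 0.69 without, and in Sox2-GFP embryonic BKF against KF they were 1.85 and 2.05. These medians were not tested.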
